A study of Nicotiana tabacum with 32 samples.

Results

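The response of wild-type tobacco cells to the bacterial elicitor harpin was read on 3 of the 32 two-colour arrays of a study of the tobacco mitogen-activated protein kinase SIPK. The arrays were chosen by title: each carried RNA of harpin-treated wild-type cells against RNA of untreated wild-type cells, and each clone's log2 ratio was set against 0. A further array of the same comparison with the dyes exchanged was held out of the fit and served as a check of sign, except in an alternative fit with a dye term, which is named wherever it is used. Of the 15360 clones printed as pairs of spots, 6637 had a value on at least 2 of the 3 arrays and were tested.

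The cells were suspension cultures of Nicotiana tabacum, genotype Xanthi, grown in the dark at 25 °C. Fresh medium was given 3 days before the flasks of a genotype were pooled and split into 10 ml volumes. The treated cells received harpin, given in the labels with the bacterium P. syringae, for 4 h and no pre-treatment. The untreated cells of the biotic set were taken at 0 h. The treated RNA carried Cy3 and the untreated RNA Cy5 on the 3 arrays, and the reverse on the dye-exchanged array. Results are set beside 3 arrays of wild-type cells treated for 4 h with megaspermin, an elicitin-type protein of a Phytophthora species, against the same kind of untreated reference. The labels of those 3 arrays give P. syringae as the source of megaspermin, while other arrays of the series give P. megasperma. Values from 3 arrays of SIPK-silenced cells (RNA interference, SIPK-Ri) against wild-type cells, both after 4 h of harpin, are also given; how many silenced lines were used is not given in the sources used here.

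The volumes of a genotype came from 1 pool of cells, so the p-values measure the spread between volumes of that pool and between arrays. That spread was estimated over 30 arrays in 10 groups together, most of them of other comparisons, and not from the harpin arrays alone. Harpin cannot be told apart from 4 h in culture, since the untreated cells were taken at 0 h. Values are ratios and hold no level of any transcript, so markers of the cell type could not be checked for presence. A ratio in bulk RNA also does not separate fewer cells that make a transcript from less transcript per cell. The ratio was most likely treated over untreated, because the labels call the treated RNA the query and the untreated RNA the reference; all directions below rest on that reading. The genotype arrays were read the same way, as silenced (query) over wild type (reference), and their direction is likewise likely and not stated.

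Harpins are heat-stable, glycine-rich proteins that plant pathogenic bacteria deliver through the type III secretion system, and in tobacco they trigger the hypersensitive response, a localised programmed death of plant cells. In tobacco suspension cells they are known to set off ion fluxes, an oxidative burst, alkalinisation of the medium and the activation of SIPK and its relative WIPK. Ethylene, which accompanies many such responses, is made from S-adenosylmethionine, and the methionine cycle and its salvage branch replace the methionine that this consumes. Plant cells under attack also commonly redirect carbon between starch, sugars, glycolysis and fermentation.

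After 4 h of harpin the transcripts of wild-type cells had changed widely. At an adjusted p below 0.05 (limma, Benjamini-Hochberg over all 6637 clones), 3548 clones differed from 0, a share of 53.5%. Of these, 1784 were higher (26.9%) and 1764 lower (26.6%) in the harpin-treated cells. Changes of at least 2-fold were fewer, with 345 clones higher (5.2%) and 515 lower (7.76%). A single sign on every measured array besides was held by 51.8% of tested clones. At 4-fold, 41 were higher and 33 lower. The median of all tested clones was 0.058, and the extremes were -3.98 and 4.39. The count of calls fell to 2198 of 4721 clones without replicate 2. It was 2666 of 6637 when the fit held the harpin arrays alone, and 2819 with array weights.

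The arrays gave values for 8258, 11309 and 12773 of the 32448 spots, so array 1 held the fewest clones (5130, against 6766 and 7454). The dye-exchanged array gave 9412 spots and 5595 clones. Duplicate spots of a clone correlated at 0.909 to 0.947 within an array, and clones at 0.808 to 0.817 between arrays. Array 2 gave the largest ratios, when each was signed so that the direction of the clone's mean counts as positive. Among 2645 clones that passed and had 3 values, array 2 held the largest signed value 1262 times. The smallest was on array 1 1116 times and on array 3 975 times. The median of these signed log2 ratios was 0.64, 0.82 and 0.68 on arrays 1 to 3. Intensities were not used here, so dim and bright spots were not separated.

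Exchanging the dyes kept the sign of nearly every larger change. Of the 3071 clones that passed and had a value on the dye-exchanged array, 2970 (96.7%) had the same sign there. The share was 92.3% for mean log2 ratios under 0.5, 97.3% between 0.5 and 1, and 99.5% at 1 or more. All 70 clones at 2 or more kept their sign. Among clones that did not pass, 70.3% had the same sign. With the dye-exchanged arrays added and a dye term fitted, 3566 clones passed.

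The deposited values settle the base of the logarithm for these arrays. Below a log2 ratio of -1.5, 100% of the values on the 7 wild-type response arrays (harpin, megaspermin and dye-exchanged) fell within 0.002 of the base-2 logarithm of a whole hundredth. At most 13.6% did so with the natural or the decimal logarithm, and at most 8.48% with the sign turned. The ratio had thus been rounded to 0.01 before its logarithm was taken, which makes strong falls coarser than strong rises. The step is 0.014 in log2 at a ratio of 1, 0.029 at 0.5, 0.14 at 0.1 and 0.26 at 0.05.

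Gene symbols are those of potato, since the arrays carry potato clones, and a potato clone can bind tobacco relatives of the named gene. Of 91 named symbols on the array, 72 had a tested clone and 19 had none. Among the 72, 23 had a clone that rose, 26 had one that fell, none had both and 23 had no clone past the threshold. By clone, 32 of 112 rose (28.6%) and 40 fell (35.7%), against 26.9% and 26.6% of all tested clones.

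**Figure D1:**
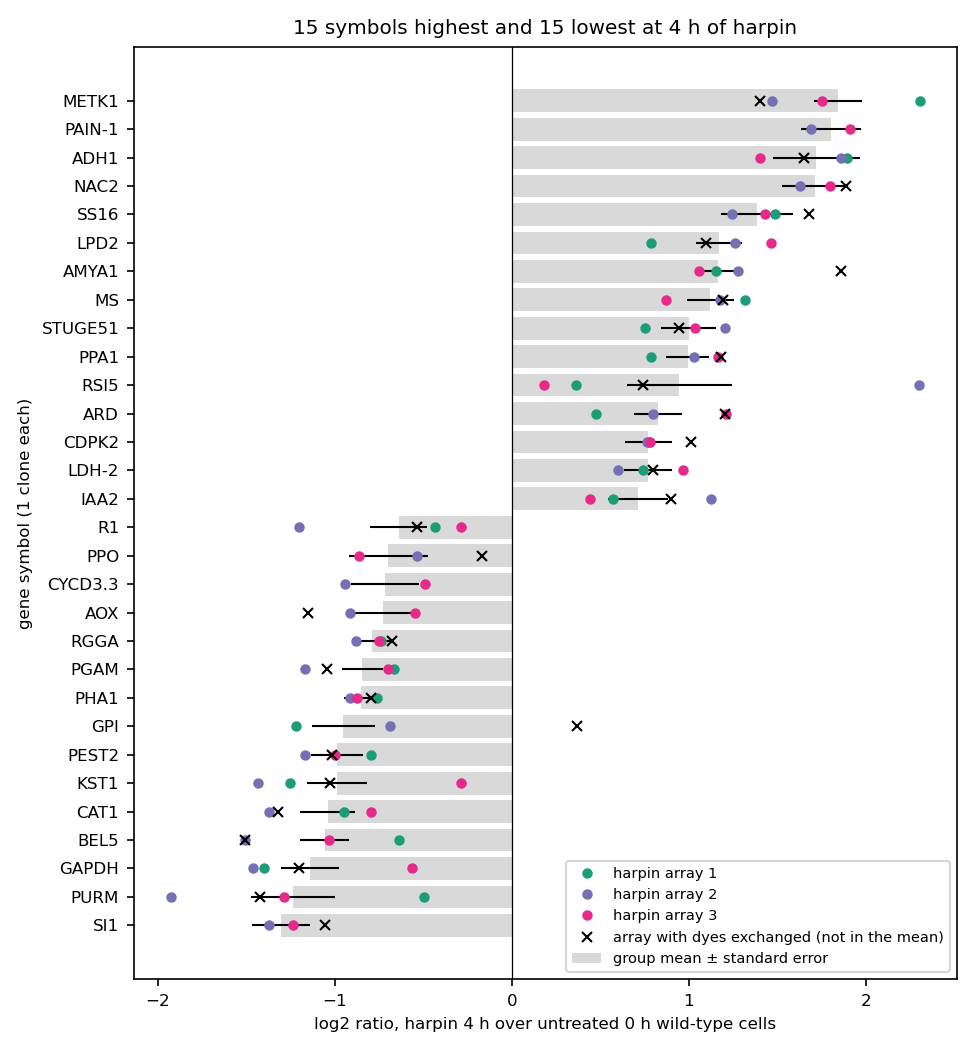
Log2 ratio of harpin-treated over untreated wild-type cells for the 15 named symbols with the largest rise and the 15 with the largest fall, 1 clone a symbol. Points are the single arrays, with the dye-exchanged array marked separately, and bars are the model's mean with its standard error. METK1, PAIN-1, ADH1 and NAC2 lie highest, with means of 1.84, 1.80, 1.72 and 1.71, and RSI5 has 1 array, at 2.30, far above the other two.

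S-adenosylmethionine synthetase rose in every tested clone, acireductone dioxygenase rose, and methionine synthase rose in 2 of 5 clones. Of 13 tested clones for the methionine cycle, one-carbon metabolism and the ethylene precursor, 9 rose, 0 fell (0 also at an unadjusted p below 0.05 in limma) and 4 did not pass, with a median log2 ratio of 0.84 against 0.058 over all clones tested. Among all tested clones 26.9% rose and 26.6% fell, and 6 of the 9 that rose here are clones of METK1. METK1 encodes S-adenosylmethionine synthetase, which makes the methyl donor and ethylene precursor S-adenosylmethionine. Its leading clone read 2.30, 1.47 and 1.75 on the 3 arrays and 1.40 with the dyes exchanged. All of these lie far above 0, and array 1 is the highest. The mean was 1.84 ± 0.14 (SE), a 3.59-fold rise (limma, adjusted p = 1.1e-11). METK1 has 9 clones on the array, and all 6 that were tested rose, by 0.84 to 1.84.

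The other members of the group were less uniform. MS, methionine synthase, which remethylates homocysteine, had 5 tested clones, of which 2 rose and 3 did not pass, the latter at -0.12, -0.01 and 0.25. The leading MS clone read 1.32, 1.18 and 0.87, with 1.20 on the dye-exchanged array. These 4 readings lie close together, at a mean of 1.12 ± 0.13 (2.17-fold, limma adjusted p = 6.1e-08). The clones of MS spread over many times their standard errors, and whether they read different members of the gene family was not tested. ARD, acireductone dioxygenase of the methionine salvage pathway, read 0.47, 0.80 and 1.21, and its mean of 0.83 ± 0.14 passed (limma adjusted p = 1.0e-05). Serine hydroxymethyltransferase (SHMT), which feeds one-carbon units into the cycle, had a mean of 0.37 ± 0.17 and did not pass (limma adjusted p = 0.066).

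**Figure D2:**
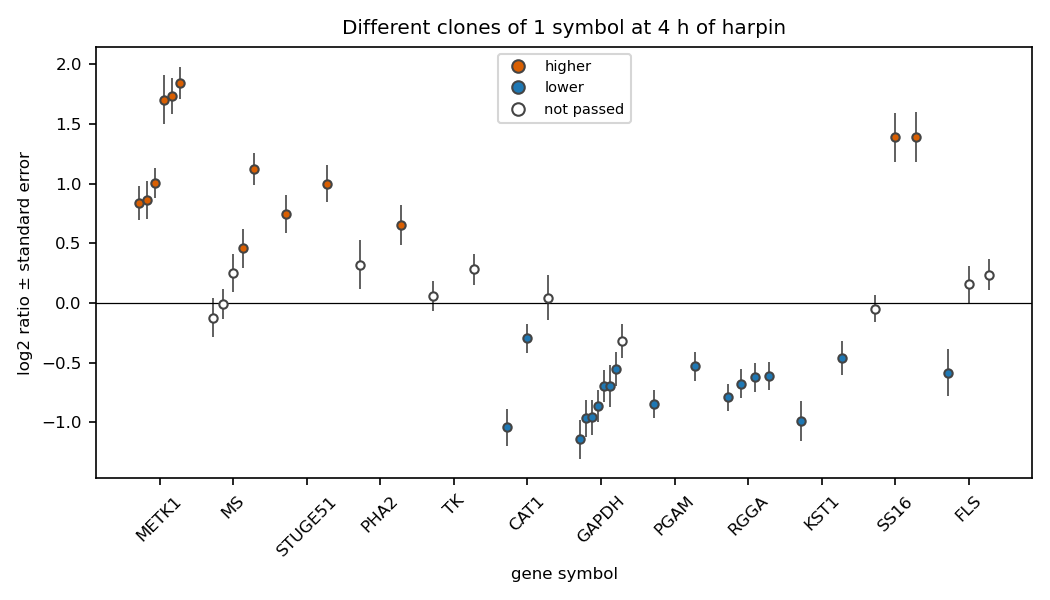
Harpin log2 ratio of every tested clone (vertical axis, with the model's standard error) of METK1, MS, STUGE51, PHA2, TK, CAT1, GAPDH, PGAM, RGGA, KST1, SS16 and FLS, coloured by whether the clone passed higher, passed lower or did not pass. The 6 METK1 clones all lie above 0.8 and the 8 GAPDH clones all lie below 0, while MS, CAT1 and SS16 each hold clones that passed and clones near 0.

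The 21 symbols with several tested clones (61 clones) show how far 1 clone speaks for a symbol. In 8 of them every tested clone passed in the same direction, as for METK1, STUGE51 and STWRKY8 upward and KST1, PGAM, GPI, RGGA and SI1 downward. In none did clones pass in opposite directions.

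Carbon metabolism moved in both directions. An acid invertase, an alpha-amylase, a pyrophosphatase and alcohol dehydrogenase rose, while most clones of the glycolytic enzymes GAPDH and PGAM fell. Over the list of carbon metabolism, 4 of 20 tested clones rose, 11 fell and 5 did not pass, with a median of -0.48, where 26.9% of all tested clones rose and 26.6% fell. Of the 11 that fell, 7 are clones of GAPDH alone, 2 of PGAM, 1 of GBSS and 1 of R1, which is also on the defence list and is described with it.

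PAIN-1, the vacuolar acid invertase that splits sucrose, had no value on array 1 and read 1.69 and 1.91 on arrays 2 and 3. Its mean was 1.80 ± 0.17, a 3.49-fold rise (limma adjusted p = 3.0e-09, n = 2). AMYA1, an alpha-amylase that degrades starch, read 1.16, 1.28 and 1.06 and rose by 2.24-fold (mean 1.17 ± 0.12, limma adjusted p = 1.0e-08). Its 3 arrays are close to each other, and the dye-exchanged array is higher at 1.86. PPA1, an inorganic pyrophosphatase, read 0.79, 1.03 and 1.16 on the arrays and 1.18 with dyes exchanged. It rose by 1.99-fold (0.99 ± 0.12, limma adjusted p = 1.1e-07).

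Alcohol dehydrogenase and lactate dehydrogenase, enzymes of fermentation, rose as well, in 1 tested clone each. ADH1, alcohol dehydrogenase, read 1.90, 1.86 and 1.40, with 1.65 on the dye-exchanged array, all well above 0. Its mean was 1.72 ± 0.25, a 3.29-fold rise (limma adjusted p = 1.4e-06). LDH-2, lactate dehydrogenase, read 0.74, 0.60 and 0.97 and rose by 1.70-fold (0.77 ± 0.14, limma adjusted p = 2.7e-05). LPD2, a lipoamide dehydrogenase, a shared subunit of the 2-oxoacid dehydrogenase complexes of mitochondria, read 0.79, 1.26 and 1.47 and rose by 2.25-fold (1.17 ± 0.13, limma adjusted p = 1.6e-08). PDHE1-A, of the pyruvate dehydrogenase complex, had a mean of 0.18 ± 0.11 and did not pass (limma adjusted p = 0.18). LDH-2, LPD2 and PDHE1-A are in none of the lists.

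Among glycolytic enzymes GAPDH, glyceraldehyde-3-phosphate dehydrogenase, had the most clones. Of its 8 tested clones 7 fell and 1 did not pass, with means from -1.14 to -0.32. The leading clone read -1.40, -1.46 and -0.57 and fell by 1.14 on the log2 scale (SE 0.16, 2.21-fold lower, limma adjusted p = 1.3e-06). Array 3 gave the smallest fall in all 8 clones, from -0.57 to -0.05, against -1.40 to -0.42 on array 1 and -1.46 to -0.48 on array 2. The dye-exchanged array lay between, from -1.20 to -0.34.

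Phosphoglycerate mutase (PGAM) fell in both tested clones, its leading clone reading -0.67, -1.17 and -0.70 (mean -0.85 ± 0.12, limma adjusted p = 6.3e-07). Glucose-6-phosphate isomerase (GPI) also passed in both clones, but its leading clone went against its sign when the dyes were exchanged. That clone read -1.22 and -0.69 on arrays 1 and 2, had no value on array 3 and read 0.37 on the dye-exchanged array. Its mean of -0.95 ± 0.18 (limma adjusted p = 6.0e-05, n = 2) became -0.36 with a dye term (limma adjusted p = 0.052). The other GPI clone read -0.58, -0.76 and -0.25, and -0.40 with dyes exchanged. Pyruvate kinase (PK), at -0.22, and both clones of transketolase (TK) of the pentose phosphate pathway, at 0.28 and 0.06, did not pass. GBSS, the granule-bound starch synthase, fell by 0.43 on the log2 scale (SE 0.17, limma adjusted p = 0.040, n = 2), a call that was lost after scaling, with array weights, with the replicate number as a block, with each spot on its own and with the harpin arrays alone.

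**Figure D3:**
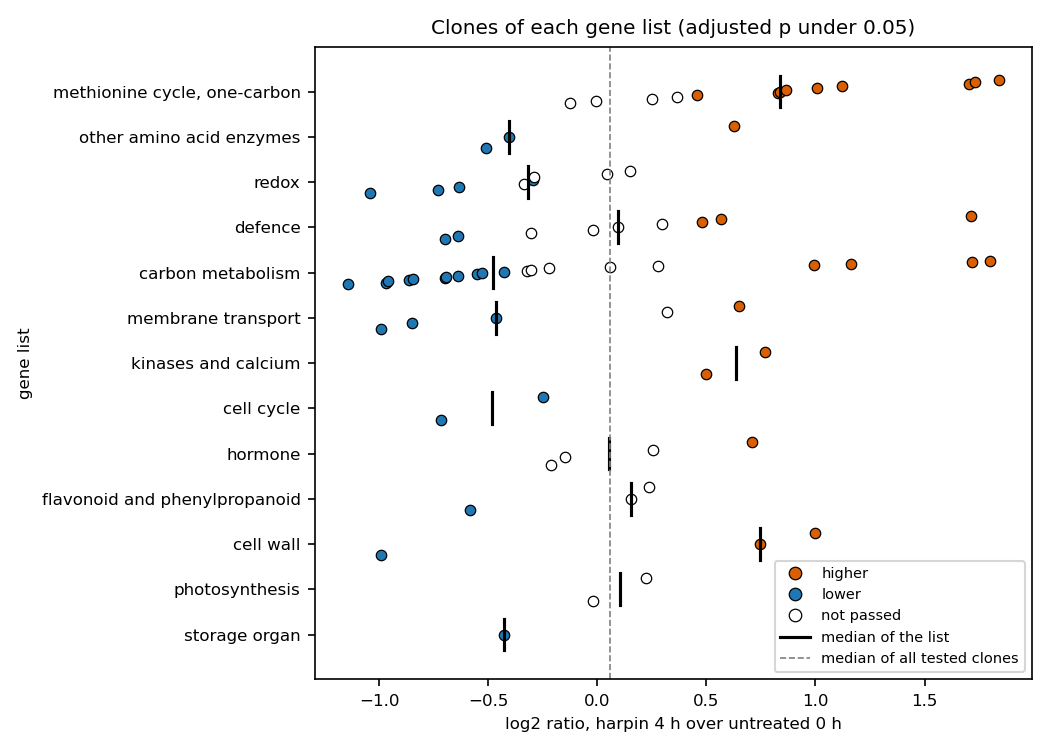
Harpin log2 ratio (horizontal axis) of each tested clone in the 13 gene lists, 1 line a list, coloured by whether it passed, with the median of each list and the median of all 6637 tested clones, 0.058, as a vertical line. Methionine-cycle clones sit mostly above 0.8, carbon metabolism spreads from -1.14 to 1.80, and redox clones lie at or below 0.15.

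Transcripts of the redox list did not rise in any tested clone: 0 of 8 rose by limma's test (0 also at an unadjusted p below 0.05), 4 fell and 4 did not pass, with a median of -0.32; 4 of 8 called is near the 53.5% called among all clones. GRX2, which is outside the list, rose (0.27, 0.57 and 0.41, mean 0.42 ± 0.16, limma adjusted p = 0.026). CAT1, a catalase that removes hydrogen peroxide, read -0.95, -1.38 and -0.80 in its leading clone and -1.32 with dyes exchanged. The 4 readings are all clearly below 0, and the mean was -1.04 ± 0.15 (2.06-fold lower, limma adjusted p = 2.3e-06). A CAT1 clone at -0.30 ± 0.12 also passed (limma adjusted p = 0.045), and the remaining clone, at 0.04, did not. AOX, the alternative oxidase of mitochondria, read -0.92 and -0.55 on arrays 2 and 3 and -1.15 with dyes exchanged, and had no value on array 1. Its mean of -0.73 ± 0.20 passed (limma adjusted p = 0.0040, n = 2), though not after arrays were scaled to a common spread (-0.51, limma adjusted p = 0.055).

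DHAR, a dehydroascorbate reductase of the ascorbate cycle, had the widest disagreement between dye orientations among named genes that passed. It read -0.23, -0.73 and -0.94 on the 3 arrays, all below 0, but 1.70 on the dye-exchanged array. The mean over the 3 arrays was -0.63 ± 0.17 (limma adjusted p = 0.0031). DHAR was not among the 2 redox clones that passed with a dye term. DHAR2, a related symbol, was at 0.15, and both clones of UCP, the mitochondrial uncoupling protein, were at -0.33 and -0.29; none of these passed. The redox count was sensitive to the arrays used: it was 1 of 8 after scaling to a common spread, 2 of 8 with a dye term, 2 of 6 without replicate 2 and 1 of 6 without replicate 3.

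Among defence genes the transcription factors NAC2 and STWRKY8 rose, and PPO and R1 each fell in 1 clone. Of 9 tested clones on the defence list 3 rose, 2 fell and 4 did not pass, with a median of 0.094, near that of all clones (0.058). These shares are near those of all tested clones (53.5% called, 26.9% higher and 26.6% lower). NAC2, a NAC-domain transcription factor, read 1.63 and 1.80 on arrays 2 and 3, had no value on array 1 and read 1.89 with dyes exchanged. It rose by 3.28-fold (1.71 ± 0.19, limma adjusted p = 3.9e-08, n = 2). STWRKY8, of the WRKY family of defence-related transcription factors, passed in both tested clones. The means were 0.57 ± 0.16 and 0.48 ± 0.19, and the better-measured clone read 0.95, 0.74 and 0.02, so array 3 hardly moved.

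PR1B, a pathogenesis-related protein, was at 0.30 ± 0.18 and VPE2, a vacuolar processing enzyme, at -0.02 ± 0.14, and neither passed (limma adjusted p = 0.17 and 0.92). HRBP1, a harpin-binding protein, was at 0.16 ± 0.22 and did not pass (limma adjusted p = 0.56, n = 2). PPO, polyphenol oxidase, had 1 clone that fell, at -0.70 ± 0.22 (-0.53 and -0.86, no value on array 1, limma adjusted p = 0.010), and 1 at 0.09 whose arrays ran from 0.90 to -0.58. The fall of PPO did not pass after scaling (limma adjusted p = 0.12) or with array weights (0.076). R1 fell in 1 of 2 clones (-0.43, -1.20 and -0.29, mean -0.64 ± 0.16, limma adjusted p = 0.0017), and without replicate 2 it did not pass (-0.36, limma adjusted p = 0.099). Without replicate 2, 0 of the 5 defence clones still tested passed the limma threshold, and 1 had an unadjusted p below 0.05.

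Plasma membrane transporters moved in both directions, and the 2 proton pumps moved apart. Of 5 tested clones of membrane transport 1 rose, 3 fell and 1 did not pass, with a median of -0.46, where 53.5% of all clones passed. PHA1, a plasma membrane proton ATPase, read -0.76, -0.92 and -0.87, with -0.80 on the dye-exchanged array, so all 4 readings lie within a narrow range. It fell by 0.85 on the log2 scale (SE 0.098, 1.80-fold lower, limma adjusted p = 4.0e-08). PHA2, another plasma membrane proton ATPase, read 0.57, 0.70 and 0.68 and rose by 1.57-fold (0.65 ± 0.17, limma adjusted p = 0.0019). The other PHA2 clone, at 0.32 ± 0.20, did not pass. KST1, an inward potassium channel, fell in both clones. The leading one read -1.25, -1.43 and -0.28, so arrays 1 and 2 were far lower than array 3 (mean -0.99 ± 0.17, limma adjusted p = 2.0e-05).

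Both tested clones of the kinase and calcium list rose, where 26.9% of all tested clones rose. Only 1 of the 2 passed after scaling to a common spread, with the harpin arrays alone or at an adjusted p under 0.01. CDPK2, a calcium-dependent protein kinase, read 0.77, 0.76 and 0.78, with 1.01 on the dye-exchanged array. Its 3 arrays were nearly identical, at a mean of 0.77 ± 0.13 (1.71-fold, limma adjusted p = 1.8e-05). PKIN1, a kinase related to SNF1, a regulator of energy metabolism, was at 0.50 ± 0.18 (0.23 and 0.77, no value on array 2, limma adjusted p = 0.018). No clone on the array was named for SIPK.

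Of 4 tested hormone clones only IAA2 passed, where 53.5% of all tested clones passed. IAA2, of the Aux/IAA family of auxin-response repressors, read 0.57, 1.12 and 0.44 and rose by 1.64-fold (0.71 ± 0.17, limma adjusted p = 0.00093). IAA3 (-0.21), the gibberellin 2-oxidase GA2OX1 (0.26) and the ethylene receptor ERS (-0.15) did not pass. In the cell cycle list both tested clones fell, where 26.6% of all tested clones fell. CYCD3.3, a D-type cyclin that promotes entry into the cycle, read -0.94 and -0.49 with no value on array 1 (-0.72 ± 0.19, limma adjusted p = 0.0046), and RANGAP1, the activator of the Ran GTPase, was at -0.25 ± 0.10 (limma adjusted p = 0.046). Leaving out any 1 harpin array reduced this count, to 1 of 2, 1 of 1 and 0 of 1 clones for arrays 1 to 3, the last with 0 also at an unadjusted p below 0.05.

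The cell wall list held 3 tested clones, all past the threshold, where 53.5% of all tested clones passed. Of these 3, 2 are clones of STUGE51. STUGE51, a UDP-glucose 4-epimerase that supplies UDP-galactose, rose in both clones, by 0.998 ± 0.153 (0.75, 1.21 and 1.04) and by 0.75 ± 0.16 (0.24, 0.93 and 1.06). PEST2, a pectinesterase, read -0.80, -1.17 and -1, with -1.02 on the dye-exchanged array. It fell by 0.99 on the log2 scale (SE 0.15, 1.98-fold lower, limma adjusted p = 2.4e-06).

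The shikimate pathway and other amino acid enzymes went separate ways. SHKA, the synthase of the entry step of the shikimate pathway to aromatic amino acids, read 0.73, 0.72 and 0.42 and rose by 1.54-fold (0.63 ± 0.14, limma adjusted p = 0.00061). Threonine synthase (TS), at -0.40 ± 0.16, and the branched-chain aminotransferase BCAT1, at -0.51 ± 0.14, fell (limma adjusted p = 0.034 and 0.0035), but without replicate 2 only SHKA passed of these 3. Threonine synthase competes with methionine synthesis for a common precursor. Flavonol synthase (FLS) fell in 1 of 3 clones (0.02, -1.07 and -0.70, mean -0.58 ± 0.20, limma adjusted p = 0.013), with the others at 0.15 and 0.24. That fall lost its call without replicate 2, without replicate 3, after scaling and with the harpin arrays alone, and without replicate 3 another FLS clone passed upward.

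Other named genes with large changes belonged to none of the lists. BEL5, a homeodomain transcription factor of the BEL1 family, read -0.64, -1.505 and -1.03, and -1.51 with dyes exchanged (mean -1.06 ± 0.14, 2.08-fold lower, limma adjusted p = 2.7e-07). PURM, an enzyme of purine synthesis, was uneven, at -0.49, -1.93 and -1.29, and fell by 1.24 on the log2 scale (SE 0.24, limma adjusted p = 8.5e-05). SI1 passed downward in both clones, the leading one at -1.38 and -1.23 with no value on array 1 (-1.30 ± 0.16, limma adjusted p = 5.6e-07).

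RGGA fell in all 4 of its clones within a narrow range. Its leading clone read -0.74, -0.88 and -0.75 (-0.79 ± 0.11, limma adjusted p = 1.0e-06), and the others had means of -0.61 to -0.68. SS16 rose in 2 of 3 clones by 1.39 each (1.49, 1.24 and 1.43 in the leading clone, limma adjusted p = 1.7e-06), while the remaining SS16 clone was at -0.05. RSI5 rested on array 2. It read 0.36, 2.30 and 0.18, its mean was 0.95 ± 0.30 (limma adjusted p = 0.0088), and without replicate 2 it was 0.27 (limma adjusted p = 0.47).

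Markers of other tissues gave little to read. PSBR, a photosystem II protein of green tissue, did not pass in either of its 2 tested clones (-0.02 and 0.22), out of 6 clones on the array for that list. GBSS, a marker of starch-storing tuber, is given with the carbon genes above. The part of either in the results was not tested.

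**Figure D4:**
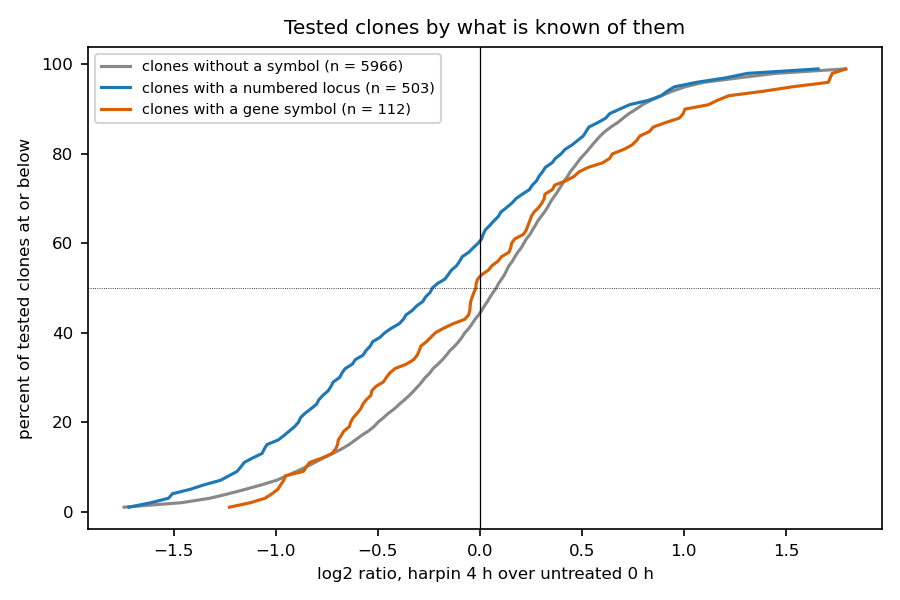
Percent of tested clones (vertical axis) at or below each harpin log2 ratio (horizontal axis), for clones with a gene symbol (112), with a numbered locus (503) and with no symbol (5966). The curve of numbered loci lies to the lower side of the others through most of its range, with a median of -0.23 against 0.08 for clones with no symbol.

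The share of rises and falls varied with the annotation of the clones. Of 503 tested clones named only by a numbered locus, 105 rose (20.9%) and 224 fell (44.5%), with a median of -0.23. Clones with several symbols behaved in the same direction, with 9 of 56 higher and 27 lower. Of 5966 clones without a symbol, 1638 rose (27.5%) and 1473 fell (24.7%), with a median of 0.081. Clones without a symbol made up 38 of the 41 that rose and 32 of the 33 that fell by at least 4-fold, and 5966 of the 6637 clones tested, so the shares are close.

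Of 280 numbered loci with a tested clone, 76 had a clone that rose, 121 had one that fell and 6 had both. Among 125 loci with several tested clones, 45 had every clone lower and 11 every clone higher. By clone, 20.9% of those with a numbered locus rose and 44.5% fell, against 26.9% and 26.6% of all tested clones. LOC102590282 read -2.34, -1.69 and -1.58 (mean -1.87 ± 0.15, 3.65-fold lower, limma adjusted p = 5.0e-11). All 3 of its tested clones fell, with means from -2.31 to -1.60. LOC102606065 fell in all 6 tested clones, with -1.84, -1.86 and -1.62 in the leading one (-1.77 ± 0.14, limma adjusted p = 2.1e-11).

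LOC102577779 (-2.43, -0.84 and -1.89, mean -1.72 ± 0.19) and LOC102590882 (-1.84 and -1.60, mean -1.72 ± 0.15, no value on array 1) followed downward. Upward, LOC102577514 had no value on array 1 and read 2.77 and 2.18 (2.47 ± 0.32, 5.56-fold, limma adjusted p = 2.7e-07, n = 2), while its other tested clone was at 0.10. LOC102588225 varied between arrays, at 0.49, 3.07 and 1.95 (1.83 ± 0.34, limma adjusted p = 6.6e-05). LOC102587932 (1.99, 1.78 and 1.43, mean 1.73 ± 0.16) and LOC102578494 (2.03 and 1.35, mean 1.69 ± 0.19, no value on array 1) complete the 4 highest. Another LOC102587932 clone also rose, by 1.31. A further clone of that locus read 1.52, -1.06 and 1.12 and did not pass (0.53 ± 0.25, limma adjusted p = 0.079).

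The extreme clones of the response have no symbol. The clone at spot 158457 read 3.59, 5.28 and 4.30, with 4.82 on the dye-exchanged array (4.39 ± 0.28, 20.9-fold, limma adjusted p = 7.0e-13). The clone at spot 131433 read 4.28 and 3.48 on arrays 2 and 3 (3.88 ± 0.19, 14.7-fold). At the other end, the clone at spot 142202 read -3.40, -4.19 and -4.35 and fell by 3.98 on the log2 scale (SE 0.22, 15.8-fold lower, limma adjusted p = 7.0e-13). The clone at spot 159929 read -3.32 and -4.32 on arrays 2 and 3 (-3.82 ± 0.44). Falls of this size rest on ratios near 0.1 or below, where the rounding step is at least 0.14.

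The response to harpin was then compared with that to megaspermin, an elicitor of different origin, at the same 4 h. Harpin gave higher ratios for methionine synthase, S-adenosylmethionine synthetase and the proton ATPase PHA2, and lower ratios for catalase CAT1 and GAPDH. The difference was tested for 6032 clones, and 836 passed (13.9%), 418 higher (6.93%) and 418 lower (6.93%) with harpin. By comparison, 46.0% of clones passed in the megaspermin response itself. Of 106 named clones tested, 16 were higher with harpin (8 symbols) and 8 lower (6 symbols). Both responses were set against untreated wild-type cells, so only the test of the difference is used to compare them.

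**Figure D5:**
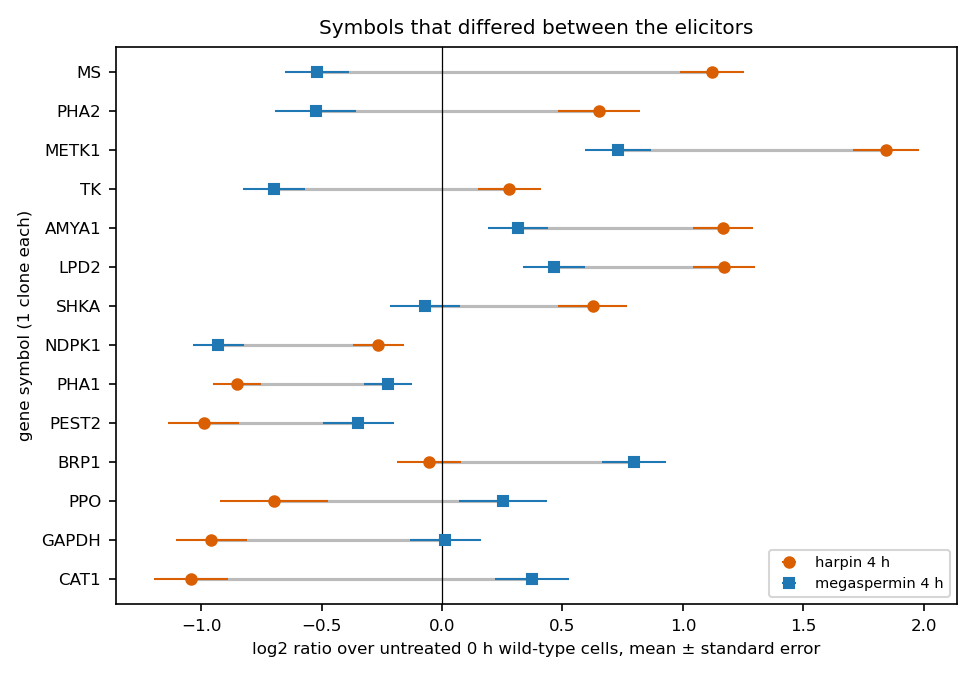
Mean log2 ratio with its standard error under harpin and under megaspermin, joined by a line, for 1 clone of each of the 14 symbols whose difference passed, ordered by the difference. MS and PHA2 lie above 0 with harpin and below 0 with megaspermin, and CAT1 the reverse.

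MS had the largest difference of the named genes. Its leading clone read 1.32, 1.18 and 0.87 with harpin and -0.53, -0.68 and -0.36 with megaspermin, so the groups lie on opposite sides of 0. The difference was 1.64 ± 0.19 (limma adjusted p = 5.4e-07), and all 5 MS clones passed it, at 0.90 to 1.64. In the clones of MS that did not pass with harpin, the megaspermin means were -0.91 to -1.15. METK1 read 0.65, 0.46 and 1.08 with megaspermin, below every harpin array, with a difference of 1.11 ± 0.19 (limma adjusted p = 0.00018), and 3 of its 6 clones passed.

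PHA2 averaged 0.65 with harpin and -0.52 with megaspermin (difference 1.18 ± 0.24, limma adjusted p = 0.0011), and both its clones passed. PHA1 averaged -0.85 against -0.22 and so differed the other way (-0.63 ± 0.14, limma adjusted p = 0.0025). Both clones of TK passed as well, from means of 0.28 and 0.06 with harpin and -0.70 and -0.75 with megaspermin. AMYA1 (1.17 against 0.31), LPD2 (1.17 against 0.47), SHKA (0.63 against -0.07) and NDPK1, a nucleoside diphosphate kinase (-0.26 against -0.93), completed the genes with higher ratios under harpin. The difference of LPD2 did not pass without harpin replicate 3 (0.56, limma adjusted p = 0.060) or megaspermin replicate 3 (0.55, adjusted p = 0.056). That of SHKA did not pass without replicate 1 or 2 of either elicitor (0.61 to 0.65, limma adjusted p from 0.062 to 0.083).

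CAT1 had the largest negative difference among named genes. With megaspermin its leading clone read 0.38, 0.11 and 0.64, above 0 on every array, where harpin gave values from -1.38 to -0.80. The difference was -1.42 ± 0.22 (limma adjusted p = 4.2e-05), and 2 of 3 clones passed. The GAPDH clone with the strongest difference averaged -0.96 with harpin and 0.01 with megaspermin (-0.97 ± 0.21, limma adjusted p = 0.0017), and 2 of its 8 clones passed. PPO (-0.70 against 0.25), BRP1 (-0.06 against 0.80) and PEST2 (-0.99 against -0.35) were also lower with harpin. The difference of PPO did not pass without megaspermin replicate 1 (-0.81, limma adjusted p = 0.098). That of PEST2 did not pass without harpin replicate 2 or 3 or megaspermin replicate 3 (-0.64 to -0.42, limma adjusted p from 0.078 to 0.21).

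For several of the strongest responders no difference between elicitors was found, which does not show that the responses were equal. ADH1 averaged 1.72 and 1.69 (difference 0.03 ± 0.35), CDPK2 0.77 and 0.78 (-0.01 ± 0.19), and BEL5 -1.06 and -0.98 (-0.08 ± 0.19). PPA1 and IAA2 had higher means with megaspermin, 1.41 and 1.24, but their differences did not pass (limma adjusted p = 0.11 and 0.16). The count of differences was sensitive to processing: 313 clones passed after scaling arrays to a common spread and 130 when the fit held the 6 harpin and megaspermin arrays alone. It was 527 without harpin replicate 2 and 554 without harpin replicate 3.

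The effect of SIPK silencing at 4 h of harpin is given beside the response for the same clones. Both use RNA of harpin-treated wild-type cells, so no relation between them was tested. Silenced and wild-type cells had both received harpin, so a genotype difference already present without harpin is included and was not separated here. Of 8503 clones tested for the genotype, 2664 passed (31.3%), and 37 of 108 named clones did. The base of the logarithm could not be settled for these 3 arrays and was taken as 2.

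The leading clones of METK1 and MS, which rose in the response, did not pass for genotype, at -0.18 ± 0.14 and -0.01 ± 0.13. ARD, which also rose in the response, was higher in silenced cells (0.70 ± 0.14, limma adjusted p = 0.00019). SHMT, which did not pass in the response, was higher by 1.28 on the log2 scale (limma adjusted p = 7.4e-07). ADH1 was higher in silenced cells by 2.22 ± 0.25 (limma adjusted p = 5.1e-08), beside its harpin response of 1.72. SS16 was also higher, by 1.95 ± 0.20, beside 1.39.

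For STUGE51, AMYA1 and PEST2 the genotype value had the opposite sign to the response, if both directions are as read. Named clones that passed both tests went either way. The signs were also opposite for PPO, GAPDH, PPA1, PHA1, DHAR, GBSS, PKIN1 and RA215. They were the same for ADH1, SS16, ARD, CAT1, BEL5, KST1, NDPK1, RSI5, STWRKY8, TOM20 and TS. Harpin-treated wild-type RNA is then the numerator of the response and the denominator of the genotype ratio. An error shared through it would favour opposite signs, so the signs are given as a description only. STUGE51, which rose in both clones in the response, was lower in silenced cells (-1.48 ± 0.15, limma adjusted p = 1.5e-08). AMYA1, which rose by 1.17, was lower too (-0.92 ± 0.12, limma adjusted p = 1.3e-06). PEST2, which fell in the response, was higher in silenced cells (1.34 ± 0.15, limma adjusted p = 3.9e-08). CAT1, which fell with harpin, had the same sign in both and was lower in silenced than in wild-type cells (-0.67 ± 0.15, limma adjusted p = 0.0012). ERS, at -0.15 in the response, had the largest genotype effect of the named genes quoted here, 2.53 (limma adjusted p = 6.2e-08). PAIN-1, NAC2 and LPD2 had genotype values of 0.03, -0.07 and 0.00 and did not pass.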

How the data were processed

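The authors deposited 1 table of 32448 spots by 32 two-colour arrays. The deposited values are log2 ratios of both channels, 1 value a spot, with array medians near 0; base 2 was settled from the values for the wild-type response arrays and taken for the genotype arrays. The sources used here do not give the scanner, the background correction or the normalization. Raw intensities were not used. Each clone's pair of spots, found by its fixed spacing on the slide, was averaged (15360 clones). All 905 clones paired by GEO's platform annotation, which is dated, paired as the layout predicts. The other 1728 spots were left out. A single symbol or locus was held by 815 clones (157 with a named symbol), several by 90 and none by 14455; those with several were not named. Of 496 pairs of arrays, 0 held identical values.

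The limma package (3.58.1, in R 4.3.3) fitted 10 group means to the 30 arrays with standard dyes and moderated the variances by empirical Bayes, at 8.02 prior degrees of freedom. To be tested, a clone needed a value on at least 2 arrays of each group in a contrast. P-values are two-sided and adjusted by Benjamini and Hochberg over all clones of a contrast, with a threshold of 0.05. Standard errors are those of the model, and n is 3 arrays unless given as 2 or an array is given as having no value. Harpin means on 2 arrays were also those of PR1B (0.30) and of 1 clone each of 6 symbols. These were STWRKY8 (0.48), UCP (-0.33), MS (-0.12), FLS (0.15), PSBR (0.22) and METK1 (0.86). The fit was tested on simulated data. Tables and figures used Python 3.11.15, numpy 2.4.6, pandas 2.3.3 and matplotlib 3.10.9.

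Named in full were symbols past the threshold with 1 sign on every measured array: the 15 highest and 15 lowest by change, 1 clone a symbol (largest absolute t), then the 4 highest and 4 lowest numbered loci and the 2 highest and 2 lowest unnamed clones. For the difference between elicitors up to 8 symbols a direction were named. Genes of the 13 lists were described by counts and medians. The arrays, lists and rules were chosen with earlier results of these data known. Alternatives changed array scale, centring, weights, dye term, minimum of arrays, use of duplicate spots, moderation, arrays fitted, thresholds and replicates.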

Additional observations from a re-analysis of the deposited data

Results flagged for a closer look

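For 14 named genes the harpin and the megaspermin response differed by the test of the difference itself (limma, adjusted p below 0.05), and each is listed with harpin minus megaspermin in log2. Higher with harpin were MS (1.64), PHA2 (1.18), METK1 (1.11), TK (0.98), AMYA1 (0.85), LPD2 (0.70), SHKA (0.70) and NDPK1 (0.66). Lower with harpin were CAT1 (-1.42), GAPDH (-0.97), PPO (-0.95), BRP1 (-0.85), PEST2 (-0.64) and PHA1 (-0.63). MS, PHA2, TK and CAT1 kept the call under every alternative that was run and gave a value. The other 10 all lost it when the fit held the 6 harpin and megaspermin arrays alone, where the spread is estimated from fewer arrays, and none turned direction under any alternative run.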

How the results depend on the processing

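The 3548 clones past the threshold in the harpin response became 5738 of 10962 with each spot on its own and 860 with a change of at least 2-fold. Leaving out 1 array gave 2198 to 3153 clones, fewest without replicate 2. In the gene lists 48 of 72 clones were past the threshold, where 53.5% of all tested clones were. At 2-fold this became 11 of 72, beside 860 of 6637 over all clones. Without replicates 1, 2 and 3 in turn the lists gave 42 of 69, 31 of 59 and 37 of 60 clones. The counts over all clones were then 3153 of 6147, 2198 of 4721 and 2438 of 4597. The 836 differences between elicitors became 313 after scaling, 130 with the 6 arrays alone, 453 at an adjusted p under 0.01, 279 at 2-fold and 527 to 798 with an array left out. Centring each array on its median left 3501 harpin clones, 46.0% of them higher. The count stayed within 1.5 times under the other alternatives, from 2469 (scaled) to 3827 (no minimum of arrays). With the replicate number as a block it was 3511, and 780 for the difference. Same-numbered harpin and megaspermin arrays deviated together at r = -0.082, 0.31 and 0.064, and arrays of unlike number at -0.326 to 0.278. Deviations from a mean of 3 arrays are tied to each other, so these values cannot decide whether the numbers pair the arrays. Of 391 values of the 30 named harpin genes under alternatives, 384 kept their call, 7 lost it (RSI5, GPI, AOX, PPO and R1) and 0 reversed. RSI5 also lost its call with the harpin arrays alone (adjusted p = 0.064). Of 233 values of the 14 differences, 201 kept it, 32 lost it and 0 reversed. The causes were not tested, except that leaving out an array leaves fewer clones to test. Array 1, with the fewest spots, limits which clones have 3 values.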

Other observations

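Among named clones past the threshold with a value on the dye-exchanged array, 64 of 67 kept their sign there, and the exceptions were DHAR (1.70), GPI (0.37) and FIN1 (0.03). FIN1 read -0.57, -0.76 and -0.38 on the 3 arrays. Array 3 correlated with the dye-exchanged array at 0.899, above arrays 1 and 2 (0.825 and 0.828) and above any pair of the 3 arrays themselves; which volumes of RNA the dye-exchanged array carried is not given in the sources used here. Of the clones tested, 4414 had values on 3 harpin arrays, of which 59.9% passed, and 2223 on 2, of which 40.6% passed. On the genotype arrays only 6.34% to 10.3% of values below -1.5 fell on the base-2 logarithm of a whole hundredth, so the deposited values of those arrays had not been rounded in the same way.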
